A study of Mus musculus with 9 samples.

Results

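DNA replication and mitosis genes were followed in cultured mouse bone marrow (BM) macrophages, the precursors of osteoclasts. The set holds 40 named genes, and a gene was included when its symbol in the deposited table matched a name in that set. All 40 were among the 13526 genes of the table, 18 of them with roles in DNA replication and the G1/S transition and 22 with roles in mitosis. All 40 also passed the filter on low values, which kept 12932 genes for testing.

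The cells came from C57BL/6 mice that the labels give as 8 weeks old, and every group was first grown for 3 days with M-CSF, the growth factor of macrophages, at 10 ng/mL. The first group received RANKL, the cytokine that drives osteoclast formation, together with rmCst6, recombinant mouse cystatin M/E, a secreted inhibitor of cysteine proteases, for 48 hours. The second group received RANKL alone for 48 hours, and the third, called control, received no RANKL. There were 3 libraries in each group. The study names M-CSF beside RANKL for the 48 hours, but the sources used here do not state whether the control cells were kept for the same time or with M-CSF. In the osteoclast staining assay, which began with the same M-CSF step, RANKL was used at 10 ng/mL. Whether the sequenced cultures had that dose is not stated, nor is their dose of rmCst6. Differences from control therefore cannot be told apart from a difference in culture time or M-CSF. It is likewise not stated whether each library of a group is a culture or an animal of its own. The p-values therefore reflect the spread of these libraries alone, and that spread may be technical.

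A dividing cell copies its DNA in S phase and separates the copies in mitosis, and largely different genes serve the phases. Replication genes are switched on around the G1/S transition, many of them through E2F factors, which pocket proteins of the retinoblastoma family hold back until cyclin-dependent kinases release them. Genes for mitosis are switched on later, many of them through the MuvB complex with B-Myb and Foxm1, at promoter elements called the CHR and at CCAAT boxes bound by NF-Y. Osteoclast precursors are known to divide before they leave the cell cycle and fuse.

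The promoters of both kinds of member are shown first because the 2 classes are known to be switched on through different promoter elements. RefSeq windows of 300 bases, 250 before and 50 after a gene start on GRCm38.p6, were matched by symbol for 33 of the 40 members, with 35 windows in all. No window was matched for Mcm4, Gins2, Ccne2, Ccna2, Aurkb, Kif20a and Tpx2. The promoters printed, each on the strand of its gene, are those of Cdc6 and Mcm3 for replication and those of Ccnb2 and Cenpa for mitosis. They had the largest differences for rmCst6 against RANKL among replication windows with an E2F match and mitosis windows with a CHR match. Pcna and E2f1 had larger differences than Mcm3, but their windows held no E2F match. The windows printed were thus chosen for these motifs and do not show how common the motifs are. The Cdc6 window lies at chr11:98907901-98908200 on the plus strand, and the Mcm3 window at chr1:20820263-20820562 on the minus strand. Capitals in these windows mark E2F matches only, and other motifs stay in lower case. GENCODE places the Cdc6 gene at chr11:98907801-98923940 and the Mcm3 gene at chr1:20802968-20820312, so that the whole Cdc6 window lies inside the annotated gene.
Cdc6: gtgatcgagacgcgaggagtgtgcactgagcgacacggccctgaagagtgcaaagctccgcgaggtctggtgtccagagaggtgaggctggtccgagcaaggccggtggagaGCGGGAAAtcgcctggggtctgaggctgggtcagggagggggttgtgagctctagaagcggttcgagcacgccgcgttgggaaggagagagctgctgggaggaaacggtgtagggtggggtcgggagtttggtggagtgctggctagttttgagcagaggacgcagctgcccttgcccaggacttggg
Mcm3: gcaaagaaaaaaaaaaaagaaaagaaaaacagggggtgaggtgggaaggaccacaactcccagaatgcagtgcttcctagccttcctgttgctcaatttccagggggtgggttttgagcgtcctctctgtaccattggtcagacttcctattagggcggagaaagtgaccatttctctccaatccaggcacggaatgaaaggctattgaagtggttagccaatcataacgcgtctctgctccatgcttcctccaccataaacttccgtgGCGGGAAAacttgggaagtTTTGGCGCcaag
The Ccnb2 window lies at chr9:70421505-70421804 on the minus strand, and the Cenpa window at chr5:30666636-30666935 on the plus strand. The genes lie at chr9:70407692-70421547 and chr5:30666777-30674830 in that order, and each window spans bases upstream of the RefSeq start and the first bases of the transcript. GENCODE starts the Cenpa gene before the RefSeq start, and all Cenpa matches marked lie inside the annotated gene. Capitals in these windows mark CHR and CCAAT box matches on either strand.
Ccnb2: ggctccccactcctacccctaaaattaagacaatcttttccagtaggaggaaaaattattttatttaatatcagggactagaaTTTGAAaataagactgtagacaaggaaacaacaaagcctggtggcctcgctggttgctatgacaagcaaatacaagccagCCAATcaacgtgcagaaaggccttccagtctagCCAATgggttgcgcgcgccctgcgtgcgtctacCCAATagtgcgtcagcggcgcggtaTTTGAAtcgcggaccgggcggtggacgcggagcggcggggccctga
Cenpa: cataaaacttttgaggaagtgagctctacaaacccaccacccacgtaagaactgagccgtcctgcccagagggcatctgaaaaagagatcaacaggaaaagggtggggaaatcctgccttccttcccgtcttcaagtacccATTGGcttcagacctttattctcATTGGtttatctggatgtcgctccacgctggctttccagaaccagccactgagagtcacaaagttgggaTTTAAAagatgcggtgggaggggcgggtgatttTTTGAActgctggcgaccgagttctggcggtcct

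Motifs were searched on both strands as exact letters: TTTCCCGC, TTTGGCGC, TTTCGCGC and TTTGCCGC for E2F, TTTGAA and TTTAAA for the CHR, and CCAAT for the CCAAT box. An E2F match lay in the windows of 6 of 15 replication members, namely Mcm3, Mcm5, Mcm6, Mcm7, Cdc6 and Cdt1. It lay in 1 of 18 mitosis members (5.56%), Cdk1, in 2.26% of all 32851 RefSeq windows and in 3.67% of the 13549 windows of genes in the table. A CHR match was present in 16 of 18 mitosis members (88.9%), in 6 of 15 replication members, in 27.6% of all windows and in 20.5% of windows of genes in the table. The CCAAT box was present in 16 of 18 mitosis members (88.9%), in 9 of 15 replication members (60.0%), in 37.4% of all windows and in 37.8% of windows of genes in the table. Both a CHR and a CCAAT box were found in 15 of 18 mitosis members (83.3%), against 4 of 15 replication members (26.7%), 10.7% of all windows and 8.1% of windows of genes in the table. Matches of different motifs overlapped in 0.216% of all windows and in 1 of the 35 member windows. A match describes the letters of the window and was not tested as a binding site.

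The authors deposited log2 normalized expression, which is used as given. The lowest is 0, the values were read as log2(value + 1), and changes at low expression are understated on this scale. The values are not scaled to gene length, so levels are compared between groups and not between genes. Read counts could not be recovered from the table, so the sequencing depth is not known and the spread of the libraries gives the precision. limma was fitted to all 9 libraries together, with 1 estimate of the spread per gene. The control spread thus also enters the SE and p of rmCst6 against RANKL. For Cdc20 the SD was 0.012 in RANKL plus rmCst6, 0.060 in RANKL and 0.61 in control. A member is called higher or lower at an adjusted p under 0.05 after Benjamini-Hochberg adjustment over the 12932 genes tested. Macrophage genes were expressed in all libraries, with a median log2 value over 8 markers of 14.94 to 15.03 in RANKL plus rmCst6 libraries, 14.15 to 14.40 in RANKL libraries and 14.58 to 14.63 in control libraries. Of all genes tested, 34.8% were higher and 38.0% lower with rmCst6 than with RANKL, and 36.6% and 35.9% with RANKL against control. Of the 8 macrophage markers, 4 were higher and 1 lower with rmCst6 than with RANKL. Against control, 1 of these markers was higher and 7 lower with RANKL. Their summed level on the linear scale was 577422 to 625545 in RANKL plus rmCst6 libraries, 452004 to 497291 in RANKL libraries and 947525 to 1118170 in control libraries, and the part of this shift in the results was not tested. Adgre1, Cx3cr1 and Fcgr1, macrophage surface receptor genes, had log2 differences for rmCst6 against RANKL of 2.45, 2.63 and 6.48 in that order. They are the 3 of the 8 that were at least 2-fold higher, while the median of the 8 was 0.35 and the lowest -1.65. The osteoclast protease gene Ctsk had a mean log2 value of 8.46 ± 0.13 in RANKL plus rmCst6 libraries, 16.57 ± 0.15 in RANKL libraries and 6.08 ± 0.062 in control libraries (SD, n = 3). In bulk RNA, fewer cells of a type and less RNA per cell cannot be told apart.

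With rmCst6 added to RANKL, replication members were higher and mitosis members lower than with RANKL alone. Of the 40 members, 12 were higher and 21 lower, where 34.8% of all genes tested were higher and 38.0% lower. All 12 that were higher were replication members, the other 6 of the 18 replication members were not called, and the median log2 difference of the class was 0.65. All 21 that were lower were mitosis members, Tpx2 alone of the 22 was not called, and the median of the class was -1.28. The median over all genes tested was -0.017. By at least 2-fold, 4 members were higher, against a background of 12.8% of genes, and 15 were lower, against a background of 15.0%. The members were chosen with earlier results of these data known, so these counts are a description and not a test of the list. In the plot of the 40 log2 differences, called replication members lie to the right of 0 and called mitosis members to the left.

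**Figure D1:**
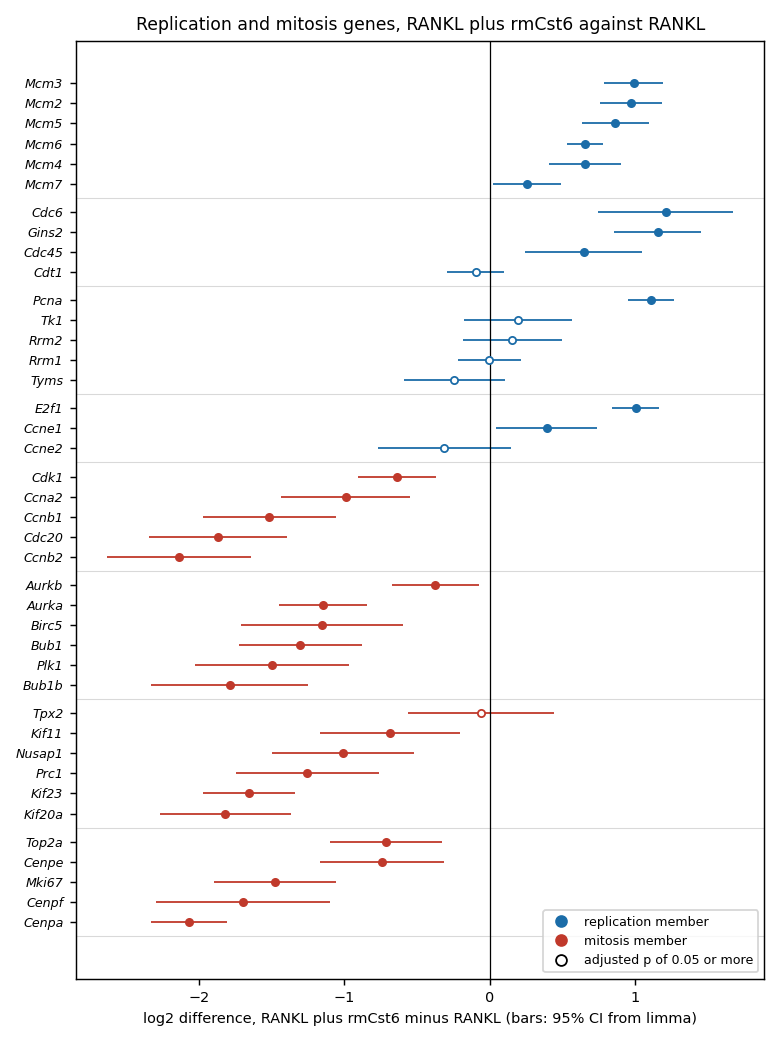
Log2 difference of each of the 40 members, RANKL plus rmCst6 minus RANKL, on the x axis, with bars for the 95% confidence interval from limma, members in rows by role, and open circles for an adjusted p of 0.05 or more. Replication members range from -0.31 (Ccne2) to 1.21 (Cdc6) and mitosis members from -2.14 (Ccnb2) to -0.061 (Tpx2).

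All 6 subunits of the MCM helicase, which unwinds DNA at the replication fork, were higher with rmCst6 than with RANKL alone, and all 6 were also higher with RANKL than in control. Mcm3 had log2 values of 11.23, 11.09 and 10.91 in RANKL plus rmCst6 libraries, 10.01, 10.25 and 10.01 in RANKL libraries and 9.17, 9.26 and 9.03 in control libraries. The 3 groups did not overlap, and the order was RANKL plus rmCst6 above RANKL above control. Mcm3 was 1.98-fold higher with rmCst6 than with RANKL alone (log2 difference 0.99 ± 0.094 SE, adjusted p = 8.41e-07) and 1.92-fold higher with RANKL than in control (log2 difference 0.94 ± 0.094 SE, adjusted p = 1.5e-06). Mcm5 had log2 values of 11.28, 11.20 and 11.01 in RANKL plus rmCst6 libraries, 10.17, 10.45 and 10.29 in RANKL libraries and 8.18, 8.58 and 8.32 in control libraries. Its groups were equally separate, and it had the widest gap between RANKL and control of the MCM genes (log2 difference 1.94 ± 0.11 SE, adjusted p = 5.31e-09), with a log2 difference of 0.86 ± 0.11 SE for rmCst6 (adjusted p = 1.01e-05). The log2 differences for rmCst6 were 0.97 for Mcm2, 0.65 for Mcm4 and 0.66 for Mcm6, and the groups did not overlap for these. With RANKL against control their log2 differences were 1.32, 0.82 and 1.43 in that order, and that of Mcm7 was 1.09. For rmCst6, Mcm7 was close to the threshold (log2 difference 0.26 ± 0.11 SE, adjusted p = 0.0483), its RANKL plus rmCst6 and RANKL libraries overlapped, and the call was lost in 9 of 18 alternative fits.

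Among the genes that load and activate the helicase, Cdc6 and Gins2 were at least 2-fold higher with rmCst6. Cdc6, which helps load the MCM complex at origins, had log2 values of 8.33, 8.01 and 7.72 in RANKL plus rmCst6 libraries, 6.44, 7.29 and 6.71 in RANKL libraries and 6.28, 6.20 and 6.40 in control libraries. Every RANKL plus rmCst6 library lay above every RANKL library, and the lowest RANKL library was just above the highest control library. Cdc6 was 2.31-fold higher with rmCst6 than with RANKL (log2 difference 1.21 ± 0.21 SE, adjusted p = 0.000231). Its difference between RANKL and control was small (log2 difference 0.52 ± 0.21 SE, adjusted p = 0.0443), and this call was lost in 11 of 18 alternative fits. Cdt1, the other loader, had log2 values of 10.54, 10.41 and 10.28 in RANKL plus rmCst6 libraries, 10.67, 10.40 and 10.44 in RANKL libraries and 8.42, 8.63 and 8.53 in control libraries. Here the RANKL plus rmCst6 and RANKL libraries overlapped, and both lay above control. Cdt1 was 3.94-fold higher with RANKL than in control (log2 difference 1.98 ± 0.09 SE, adjusted p = 9.19e-10), while its log2 difference for rmCst6 was -0.10, with a 95% confidence interval of -0.29 to 0.10 (adjusted p = 0.348). Gins2 and Cdc45, which join the MCM complex in the active helicase, had log2 differences for rmCst6 of 1.15 and 0.65 (adjusted p = 7.55e-06 and 0.00697). For RANKL against control these were 0.46 and 1.26 (adjusted p = 0.00982 and 4.97e-05).

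Pcna was higher with rmCst6 than with RANKL, and the 4 genes of nucleotide supply were not called. Pcna, the sliding clamp of the DNA polymerases, had log2 values of 12.83, 12.77 and 12.77 in RANKL plus rmCst6 libraries, 11.52, 11.86 and 11.66 in RANKL libraries and 11.95, 11.81 and 11.87 in control libraries. The RANKL plus rmCst6 libraries stood above all others, and the RANKL and control libraries overlapped. Pcna was 2.15-fold higher with rmCst6 than with RANKL (log2 difference 1.11 ± 0.073 SE, adjusted p = 2.35e-08) and was slightly lower with RANKL than in control (log2 difference -0.19 ± 0.073 SE, adjusted p = 0.0291), a call lost in 6 of 18 alternative fits. Rrm1, the large subunit of ribonucleotide reductase, had log2 values of 11.16, 11.08 and 10.70 in RANKL plus rmCst6 libraries, 10.98, 11.04 and 10.94 in RANKL libraries and 9.66, 9.82 and 9.81 in control libraries. Rrm2, the small subunit, had log2 values of 9.86, 9.67 and 9.26 in RANKL plus rmCst6 libraries, 9.17, 9.63 and 9.53 in RANKL libraries and 7.74, 8.07 and 7.88 in control libraries. For both, the RANKL plus rmCst6 and RANKL libraries overlapped, and all of them lay above control. Tyms, thymidylate synthase, had log2 values of 9.17, 9.08 and 8.72 in RANKL plus rmCst6 libraries, 9.01, 9.56 and 9.14 in RANKL libraries and 7.87, 7.50 and 7.56 in control libraries. Tk1, thymidine kinase, had log2 values of 9.34, 9.08 and 8.58 in RANKL plus rmCst6 libraries, 8.71, 8.93 and 8.77 in RANKL libraries and 7.33, 7.70 and 7.33 in control libraries. These showed the same arrangement, with overlap between the RANKL plus rmCst6 and RANKL libraries and all control libraries lower. None of the 4 was called for rmCst6: the 95% confidence intervals of the log2 difference were -0.22 to 0.21 for Rrm1, -0.18 to 0.50 for Rrm2, -0.59 to 0.10 for Tyms and -0.18 to 0.57 for Tk1. Without RANKL plus rmCst6 replicate 3, Tk1 was called higher (log2 difference 0.41, limma adjusted p = 0.0229). With RANKL against control the 4 were 2.33-, 2.92-, 3.01- and 2.54-fold higher, given for Rrm1, Rrm2, Tyms and Tk1 in that order.

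E2f1 and Ccne1 were higher with rmCst6 than with RANKL, and Ccne2 was not called. E2f1, a transcription factor of the G1/S genes, had log2 values of 10.82, 10.96 and 10.66 in RANKL plus rmCst6 libraries, 9.79, 9.79 and 9.85 in RANKL libraries and 10.76, 10.92 and 10.76 in control libraries. The RANKL libraries were the lowest and stood apart, while the RANKL plus rmCst6 and control libraries overlapped. E2f1 was 2-fold higher with rmCst6 than with RANKL (log2 difference 1.0 ± 0.074 SE, adjusted p = 7.51e-08) and 2-fold lower with RANKL than in control (log2 difference -1.0 ± 0.074 SE, adjusted p = 8.91e-08). Ccne2, a cyclin partner of Cdk2, had log2 values of 8.29, 8.20 and 7.64 in RANKL plus rmCst6 libraries, 8.21, 8.59 and 8.28 in RANKL libraries and 4.92, 5.61 and 5.33 in control libraries. The RANKL plus rmCst6 and RANKL libraries overlapped, far above control. Ccne2 had the largest difference of any member between RANKL and control, 8.41-fold (log2 difference 3.07 ± 0.21 SE, adjusted p = 4.06e-08), and its 95% confidence interval for rmCst6 was -0.77 to 0.14 (adjusted p = 0.195). Ccne1 was 4.62-fold higher with RANKL than in control (adjusted p = 7.59e-08) and had a log2 difference of 0.39 for rmCst6 (adjusted p = 0.0442), a call lost in 5 of 18 alternative fits.

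**Figure D2:**
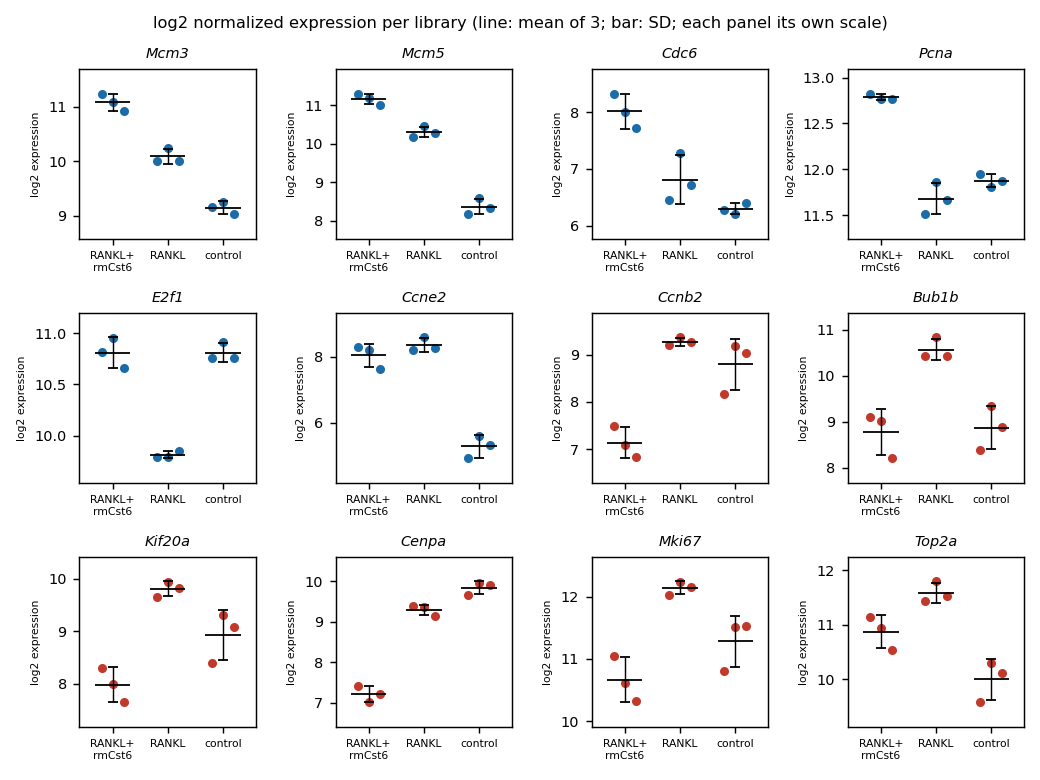
Log2 normalized expression of 12 members in each library (points), with the mean of 3 libraries (line) and the SD (bar), in RANKL plus rmCst6, RANKL and control from left to right, each panel on its own scale. Mcm3, Mcm5 and Pcna are highest in RANKL plus rmCst6, E2f1 is lowest in RANKL (9.79 to 9.85), and Ccnb2, Bub1b, Kif20a, Cenpa and Mki67 are each lower in all RANKL plus rmCst6 libraries than in all RANKL libraries.

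The 5 mitotic cyclin genes and their partners were all lower with rmCst6 than with RANKL. Cyclin B with Cdk1 drives entry into mitosis, and Cdc20 activates the ubiquitin ligase that ends it. Ccnb2 had log2 values of 7.49, 7.09 and 6.84 in RANKL plus rmCst6 libraries, 9.19, 9.36 and 9.27 in RANKL libraries and 8.17, 9.18 and 9.03 in control libraries. The RANKL plus rmCst6 libraries were below all others, and the control libraries were spread widely, just below RANKL. Ccnb2 was 4.4-fold lower with rmCst6 than with RANKL (log2 difference -2.14 ± 0.23 SE, adjusted p = 2.54e-06), the largest difference for rmCst6 among the members. Its difference between RANKL and control was not called (log2 difference 0.48 ± 0.23 SE, adjusted p = 0.0753; 95% confidence interval -0.016 to 0.97), and was called without control replicate 2 (limma adjusted p = 0.0235). Ccnb1 had log2 values of 8.48, 8.32 and 7.88 in RANKL plus rmCst6 libraries, 9.68, 9.85 and 9.71 in RANKL libraries and 7.74, 8.72 and 8.40 in control libraries. The RANKL libraries stood above both other groups, which overlapped. Ccnb1 was 2.86-fold lower with rmCst6 (log2 difference -1.52 ± 0.21 SE, adjusted p = 2.88e-05) and 2.75-fold higher with RANKL than in control (log2 difference 1.46 ± 0.21 SE, adjusted p = 4.22e-05). Cdc20 was 3.66-fold lower with rmCst6 (adjusted p = 6.2e-06), Ccna2 1.99-fold (adjusted p = 0.000769) and Cdk1 1.56-fold (adjusted p = 0.000468). With RANKL against control these genes were 2.02-, 2.56- and 1.66-fold higher in that order.

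All 6 mitotic kinase and checkpoint members were lower with rmCst6 and higher with RANKL than in control. Bub1b, which encodes a protein of the spindle checkpoint, had log2 values of 9.10, 9.03 and 8.21 in RANKL plus rmCst6 libraries, 10.43, 10.84 and 10.44 in RANKL libraries and 8.40, 9.35 and 8.88 in control libraries. The RANKL libraries stood above both other groups, which overlapped. Bub1b was 3.46-fold lower with rmCst6 (log2 difference -1.79 ± 0.25 SE, adjusted p = 2.95e-05) and 3.23-fold higher with RANKL than in control (log2 difference 1.69 ± 0.25 SE, adjusted p = 5.06e-05). Bub1, the checkpoint kinase, had log2 values of 8.38, 8.16 and 7.92 in RANKL plus rmCst6 libraries, 9.23, 9.66 and 9.49 in RANKL libraries and 6.92, 7.69 and 7.62 in control libraries. Its 3 groups did not overlap, with RANKL highest and control lowest. Bub1 was 2.47-fold lower with rmCst6 (log2 difference -1.30 ± 0.19 SE, adjusted p = 5.41e-05) and 4.13-fold higher with RANKL than in control (log2 difference 2.05 ± 0.19 SE, adjusted p = 9.16e-07). Of the others, Plk1, a kinase needed for spindle assembly, had a log2 difference for rmCst6 of -1.50, Birc5, a subunit of the chromosomal passenger complex, -1.15, and Aurka, the spindle pole kinase, -1.15. With RANKL against control Plk1 was 2.3-fold, Birc5 2.23-fold, Aurka 2.92-fold and Aurkb 1.43-fold higher. For rmCst6, Aurkb, the kinase of the passenger complex, changed least (log2 difference -0.38 ± 0.14 SE, adjusted p = 0.0261), its RANKL plus rmCst6 and RANKL libraries overlapped, and the call was lost in 3 of 18 alternative fits.

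Of the 6 spindle and cytokinesis members, 5 were lower with rmCst6. Kif20a, a kinesin of the central spindle, had log2 values of 8.31, 8.0 and 7.65 in RANKL plus rmCst6 libraries, 9.65, 9.93 and 9.83 in RANKL libraries and 8.40, 9.31 and 9.08 in control libraries. The 3 groups did not overlap, and the order was RANKL above control above RANKL plus rmCst6. Kif20a was 3.53-fold lower with rmCst6 (log2 difference -1.82 ± 0.21 SE, adjusted p = 5.01e-06). Nusap1, a binding protein of spindle microtubules, had log2 values of 8.19, 7.94 and 7.22 in RANKL plus rmCst6 libraries, 8.60, 9.01 and 8.77 in RANKL libraries and 7.29, 7.72 and 7.86 in control libraries. The RANKL libraries stood above both other groups, which overlapped. Nusap1 was 2.02-fold lower with rmCst6 (log2 difference -1.01 ± 0.22 SE, adjusted p = 0.00134) and 2.25-fold higher with RANKL than in control (log2 difference 1.17 ± 0.22 SE, adjusted p = 0.000467). Tpx2, which binds Aurora A and promotes microtubule assembly at the spindle, had log2 values of 9.72, 9.44 and 9.25 in RANKL plus rmCst6 libraries, 9.50, 9.71 and 9.39 in RANKL libraries and 7.97, 9.03 and 8.99 in control libraries. The RANKL plus rmCst6 and RANKL libraries overlapped, and control was lower. Tpx2 was the only mitosis member not called for rmCst6 (log2 difference -0.061 ± 0.23 SE, adjusted p = 0.824; 95% confidence interval -0.56 to 0.44), and it was 1.82-fold higher with RANKL than in control (log2 difference 0.87 ± 0.23 SE, adjusted p = 0.00443). Kif23 and Prc1, partners of Kif20a at the central spindle, had log2 differences for rmCst6 of -1.66 and -1.26, and Kif11, the motor that separates the spindle poles, had -0.69. Prc1 and Kif11 had log2 differences of 1.16 and 1.16 for RANKL against control. The Kif11 call was lost without RANKL plus rmCst6 replicate 3 (limma adjusted p = 0.062) and without RANKL replicate 2 (limma adjusted p = 0.057).

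Chromosome and kinetochore members were all lower with rmCst6, and Cenpa was the one that was also lower with RANKL than in control. Cenpa, the histone H3 variant that marks centromeres, had log2 values of 7.42, 7.01 and 7.22 in RANKL plus rmCst6 libraries, 9.37, 9.35 and 9.14 in RANKL libraries and 9.65, 9.95 and 9.89 in control libraries. The 3 groups did not overlap, and the order was control above RANKL above RANKL plus rmCst6. Cenpa was 4.2-fold lower with rmCst6 than with RANKL (log2 difference -2.07 ± 0.12 SE, adjusted p = 6.88e-09) and 1.46-fold lower with RANKL than in control (log2 difference -0.54 ± 0.12 SE, adjusted p = 0.00132). Top2a, the topoisomerase that untangles sister chromatids, had log2 values of 11.15, 10.93 and 10.54 in RANKL plus rmCst6 libraries, 11.44, 11.79 and 11.53 in RANKL libraries and 9.58, 10.29 and 10.12 in control libraries. Its groups did not overlap either, with RANKL highest and control lowest. Top2a was 1.64-fold lower with rmCst6 (log2 difference -0.71 ± 0.18 SE, adjusted p = 0.00295) and 3.01-fold higher with RANKL than in control (log2 difference 1.59 ± 0.18 SE, adjusted p = 4.23e-06). Mki67, the proliferation antigen that coats mitotic chromosomes, had log2 values of 11.05, 10.62 and 10.33 in RANKL plus rmCst6 libraries, 12.03, 12.24 and 12.17 in RANKL libraries and 10.80, 11.51 and 11.54 in control libraries. The RANKL libraries stood above both other groups, which overlapped. Mki67 was 2.79-fold lower with rmCst6 (adjusted p = 1.59e-05), Cenpf 3.25-fold (adjusted p = 0.000109) and Cenpe, a kinetochore motor, 1.67-fold (adjusted p = 0.00417). Mki67 and Cenpe were 1.82- and 1.63-fold higher with RANKL than in control (adjusted p = 0.0014 and 0.00579).

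RANKL against control moved the 2 classes in the same direction. With RANKL, 34 of the 40 members were higher and 3 lower, where 36.6% of all genes tested were higher and 35.9% lower. By at least 2-fold, 24 members were higher, against a background of 13.4%, and 1 was lower, against a background of 12.9%. The median log2 difference was 1.29 over the replication members and 1.09 over the mitosis members, and -0.014 over all genes tested. The 3 members that were lower were E2f1, Pcna and Cenpa. The 3 that were not called were Ccnb2, Kif23 and Cenpf, with log2 differences of 0.48, 0.074 and 0.48 and 95% confidence intervals of -0.016 to 0.97, -0.24 to 0.39 and -0.11 to 1.08 in that order. Control replicate 1 stood below the other control libraries in the mitosis members, with a median log2 value of 8.06 against 9.04 and 8.89. Without it the median log2 difference of the mitosis members was 0.75.

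RANKL plus rmCst6 against control separated the classes again. Here 21 members were higher and 7 lower, where 36.7% of all genes tested were higher and 35.1% lower. By at least 2-fold, 16 were higher, against a background of 12.5%, and 4 were lower, against a background of 13.2%. Of the replication members, 17 of 18 were higher, with a median log2 difference of 1.71, and E2f1 was not called (log2 difference 0.00078 ± 0.074 SE, adjusted p = 0.994; 95% confidence interval -0.16 to 0.16). Of the mitosis members, 4 were higher (Aurka, Bub1, Tpx2 and Top2a), 7 were lower (Ccnb2, Cdc20, Kif20a, Kif23, Mki67, Cenpa and Cenpf) and 11 were not called. The calls of Aurka (adjusted p = 0.0207) and Mki67 (adjusted p = 0.0117) were each lost in 4 of 18 alternative fits. The median of the mitosis members was -0.047, against 0.012 over all genes tested, and its sign depended on single libraries, from -0.32 to 0.15 when each library was left out. Cenpa had the largest fall against control, 6.11-fold (log2 difference -2.61 ± 0.12 SE, adjusted p = 8.12e-10), followed by Ccnb2 at 3.15-fold (log2 difference -1.66 ± 0.23 SE, adjusted p = 2.76e-05). The 3 comparisons share libraries in pairs, so they are given side by side and not as independent results.

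**Figure D3:**
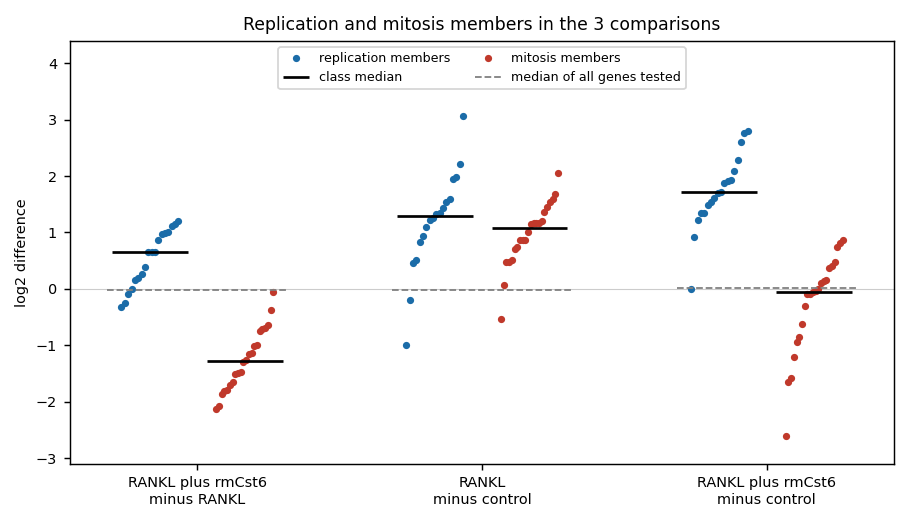
Log2 differences of the 18 replication members (left cloud) and the 22 mitosis members (right cloud) in each of the 3 comparisons, with the class median (solid line) and the median of all genes tested (dashed line). The class medians are 0.65 and -1.28 for RANKL plus rmCst6 minus RANKL, 1.29 and 1.09 for RANKL minus control, and 1.71 and -0.047 for RANKL plus rmCst6 minus control.

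Within groups the libraries also differed. The median log2 value of the mitosis members was 8.44, 8.18 and 7.83 in the RANKL plus rmCst6 libraries, 9.38, 9.61 and 9.44 in the RANKL libraries and 8.06, 9.04 and 8.89 in the control libraries. The replication members had medians of 10.46, 10.40 and 10.14 in RANKL plus rmCst6 libraries, 9.59, 9.71 and 9.70 in RANKL libraries and 8.15, 8.37 and 8.29 in control libraries. The replication medians did not overlap between groups, and the mitosis medians overlapped between RANKL plus rmCst6 and control.

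Markers of other BM cells moved between the groups too. Their counts stand beside all genes tested, of which 34.8% were higher and 38.0% lower with rmCst6 than with RANKL. For RANKL against control these shares were 36.6% and 35.9%. Of 14 neutrophil and granulocyte progenitor markers, 13 were higher with rmCst6 than with RANKL and none lower, and 12 were lower with RANKL than in control and none higher. Their summed level on the linear scale was 49023 to 57308 in RANKL plus rmCst6 libraries, 6067 to 10058 in RANKL libraries and 17684 to 24504 in control libraries, and none of the 14 was at 0 in any library. In each group the order of the 3 libraries by this sum was the order by their mitosis median and also by their replication median. Mpo, the myeloperoxidase gene, had a mean log2 value of 11.95 ± 0.19 in RANKL plus rmCst6 libraries, 7.54 ± 0.72 in RANKL libraries and 9.16 ± 0.50 in control libraries (SD, n = 3). Camp, Ngp and Prtn3, neutrophil granule genes, were 7.07-, 6.67- and 21.1-fold higher with rmCst6 than with RANKL in that order. Between RANKL plus rmCst6 and RANKL these markers and the mitosis members moved in opposite directions, and these markers and the replication members in the same direction. The part of these cells in the differences of the members was not tested.

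Other marker lists were given the same count, beside the same shares of all genes tested. These were 34.8% higher and 38.0% lower with rmCst6 than with RANKL, and 36.6% and 35.9% with RANKL against control. All 9 osteoclast markers were lower with rmCst6 than with RANKL and higher with RANKL than in control, with summed levels of 8836 to 11878, 497369 to 647052 and 1927 to 2058 in RANKL plus rmCst6, RANKL and control libraries. In each control library 1 or 2 of the 9 were at 0. Acp5 and Atp6v0d2, like Ctsk genes of mature osteoclasts, had log2 differences for rmCst6 of -5.68 and -7.90. Of 7 stem and progenitor markers, 3 were higher and 1 lower with rmCst6 than with RANKL, with summed levels of 32142 to 37155, 497 to 581 and 1001 to 1144 in the same order of groups. Most of that sum is Ly6a, which encodes Sca-1, with a mean log2 value of 15.04 ± 0.12 in RANKL plus rmCst6 libraries, 8.31 ± 0.039 in RANKL libraries and 9.53 ± 0.037 in control libraries (SD, n = 3). Kit and Myb, genes of hematopoietic progenitors, had log2 differences for rmCst6 of 1.35 and 3.12. With Ly6a these are the 3 markers that were higher, while the median log2 difference of all 7 was -0.24 and the lowest -1.46. Of 7 stromal markers in the table, 5 were higher and none lower with rmCst6, with summed levels of 3638 to 6154, 2706 to 3340 and 4729 to 8167 in the same order of groups. Cxcl12, Col3a1 and Dcn of that list had log2 differences for rmCst6 of 1.13, 0.81 and 2.08. Erythroid, B-cell and T and NK cell lists had 3 of 9, 2 of 9 and 1 of 7 genes in the table, with summed levels of at most 64, 230 and 40. For rmCst6 against RANKL, Epor had a log2 difference of 0.15 (not called), Cd79b 0.97, Ebf1 0.74 (not called) and Nkg7 2.65, and 1 of the 2 B-cell genes and the T and NK cell gene were higher. The part of these cells in the results was not tested.

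The other genes of the replication machinery followed lists chosen with earlier results of these data known. Their counts and those of the next paragraphs stand beside all genes tested. Of these, 34.8% were higher and 38.0% lower with rmCst6 than with RANKL. With RANKL against control the shares were 36.6% and 35.9%. Of 21 DNA polymerase, clamp loader and RPA genes, 18 were higher and none lower with rmCst6 than with RANKL (median log2 difference 0.52), and 16 were higher and 1 lower with RANKL than in control. Pold1, the catalytic subunit of polymerase delta, had log2 values of 10.28, 10.19 and 10.0 in RANKL plus rmCst6 libraries, 9.16, 9.10 and 8.92 in RANKL libraries and 8.67, 8.75 and 8.70 in control libraries. The 3 groups did not overlap, with RANKL plus rmCst6 highest. Pold1 was 2.14-fold higher with rmCst6 (log2 difference 1.10 ± 0.088 SE, adjusted p = 1.54e-07), Rpa2, a subunit of the single-strand binding complex, 2.07-fold (adjusted p = 1.12e-06) and Pold3, an accessory subunit of polymerase delta, 1.92-fold (adjusted p = 2.94e-07). Of 14 origin and licensing genes, 9 were higher and 3 lower with rmCst6. Among them Gins1, a partner of Gins2, had log2 values of 8.04, 7.96 and 8.10 in RANKL plus rmCst6 libraries, 6.39, 6.74 and 6.51 in RANKL libraries and 5.36, 5.53 and 5.12 in control libraries. Its groups did not overlap either, and it was 2.79-fold higher with rmCst6 (log2 difference 1.48 ± 0.16 SE, adjusted p = 3.05e-06). Gins4 of the same complex and Orc5 of the origin recognition complex had log2 differences of 0.61 and 0.76.

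Chromatin and fork genes followed. Of 8 genes for chromatin assembly and maintenance methylation, 5 were higher and 2 lower with rmCst6, and all 8 were higher with RANKL than in control. Uhrf1, which brings the maintenance methyltransferase to newly made DNA, had a log2 difference of 0.88 for rmCst6 against RANKL and 2.34 for RANKL against control. In the same comparisons Dnmt1, that methyltransferase, had log2 differences of 0.79 and 0.28, and Hat1, a histone acetyltransferase, of 0.50 and 0.95. Timeless and Fanca come from a list whose other genes and count are not reported here. Timeless, of the fork protection complex, had log2 values of 10.58, 10.55 and 10.50 in RANKL plus rmCst6 libraries, 7.71, 7.85 and 8.13 in RANKL libraries and 6.23, 6.54 and 6.54 in control libraries. Its groups did not overlap, and Timeless was 6.26-fold higher with rmCst6 (log2 difference 2.65 ± 0.12 SE, adjusted p = 8.58e-10) and 2.75-fold higher with RANKL than in control (log2 difference 1.46 ± 0.12 SE, adjusted p = 3.2e-07). Fanca, of the Fanconi anemia core complex, was 3.05-fold higher with rmCst6 (adjusted p = 1.08e-05).

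The other mitosis genes were counted in further lists of the same kind. Of 22 kinesin, spindle and cytokinesis genes, none was higher and 15 were lower with rmCst6 (median log2 difference -0.73), and 18 were higher and none lower with RANKL than in control. Aspm, a spindle pole protein, had a log2 difference for rmCst6 of -1.89, Anln, the cytokinetic ring protein anillin, -1.39, and Kpna2, an importin, -0.76. Of 17 checkpoint, APC/C and M-phase entry genes, 2 were higher and 8 lower. Ube2c, the ubiquitin-conjugating enzyme of the APC/C, had a log2 difference of -1.91, Nek2, a centrosome kinase, -1.56, and Cdc25b, a phosphatase that activates cyclin-dependent kinases, -1.44. Of 21 kinetochore and centromere genes, 5 were higher, 4 lower and 12 not called with rmCst6. Sgo2a, a protector of centromeric cohesion, had a log2 difference of -1.22, whereas Cenpw, a centromere subunit, had 0.85 and Mis18a, a factor for loading Cenpa, 0.65.

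Securin and separase moved in opposite directions. Of 11 condensin, cohesin regulator and separase genes, 2 were higher, 2 lower and 7 not called with rmCst6. Pttg1, securin, which holds separase inactive until anaphase, had log2 values of 10.51, 10.58 and 10.75 in RANKL plus rmCst6 libraries, 8.14, 8.11 and 8.10 in RANKL libraries and 8.83, 8.85 and 8.67 in control libraries. RANKL plus rmCst6 was highest and RANKL lowest, with no overlap, and Pttg1 was 5.64-fold higher with rmCst6 (log2 difference 2.50 ± 0.081 SE, adjusted p = 2.68e-11). Espl1, separase, which cleaves cohesin, had log2 values of 9.23, 8.44 and 8.48 in RANKL plus rmCst6 libraries, 10.57, 10.90 and 10.91 in RANKL libraries and 6.76, 7.68 and 7.72 in control libraries. RANKL was highest and control lowest, with no overlap, and Espl1 was 4.22-fold lower with rmCst6 (log2 difference -2.08 ± 0.25 SE, adjusted p = 8.76e-06) and 10.6-fold higher with RANKL than in control (log2 difference 3.41 ± 0.25 SE, adjusted p = 8.92e-08). Ncapg2, a condensin subunit, had a log2 difference for rmCst6 of 0.63.

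Upstream of these genes, the D-type cyclins had larger differences for rmCst6 against RANKL than any member. D-type cyclins with Cdk4 or Cdk6 begin the release of E2F from the pocket proteins. Ccnd1 had log2 values of 13.16, 13.24 and 12.99 in RANKL plus rmCst6 libraries, 8.38, 8.68 and 8.60 in RANKL libraries and 9.34, 9.21 and 9.47 in control libraries. Ccnd2 had log2 values of 11.02, 11.33 and 11.21 in RANKL plus rmCst6 libraries, 5.44, 5.02 and 5.27 in RANKL libraries and 7.09, 7.27 and 7.38 in control libraries. Ccnd3 had log2 values of 11.84, 11.65 and 11.74 in RANKL plus rmCst6 libraries, 9.26, 9.31 and 9.32 in RANKL libraries and 9.98, 10.39 and 10.10 in control libraries. For all 3, RANKL plus rmCst6 was highest and RANKL lowest, with no overlap. With rmCst6 against RANKL, Ccnd1 was 23.8-fold (log2 difference 4.57 ± 0.091 SE, adjusted p = 3.91e-13), Ccnd2 61.6-fold (log2 difference 5.94 ± 0.14 SE, adjusted p = 1.05e-12) and Ccnd3 5.46-fold higher (log2 difference 2.45 ± 0.089 SE, adjusted p = 7.98e-11). With RANKL against control the log2 differences were -0.78, -2.0 and -0.86, given for Ccnd1, Ccnd2 and Ccnd3 in that order. Of the 7 genes in the table from a list of D cyclins, G1 kinases and the transcription factor Myc, 5 were higher and 2 lower with rmCst6. The other 4 were named after their values were seen: the log2 differences for rmCst6 were 0.94 for Cdk6, -0.73 for Cdk4, 0.22 for Cdk2 and -0.38 for Myc.

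Of 7 inhibitors of cyclin-dependent kinases, 2 were higher and 4 lower with rmCst6, where 34.8% of all genes tested were higher and 38.0% lower. Cdkn2b, an inhibitor of Cdk4 and Cdk6, had log2 values of 4.28, 3.81 and 4.15 in RANKL plus rmCst6 libraries, 8.61, 8.13 and 8.04 in RANKL libraries and 4.51, 5.01 and 4.62 in control libraries. The RANKL libraries stood far above both other groups, and RANKL plus rmCst6 lay below control without overlap. Cdkn2b was 18.1-fold lower with rmCst6 (log2 difference -4.18 ± 0.23 SE, adjusted p = 4.39e-09) and 11.7-fold higher with RANKL than in control (log2 difference 3.55 ± 0.23 SE, adjusted p = 2.6e-08). Its values in RANKL plus rmCst6 and control are low, so the size of these folds is less certain. Cdkn1a, an inhibitor of Cdk2 and other kinases, had log2 values of 12.05, 11.99 and 12.02 in RANKL plus rmCst6 libraries, 11.33, 11.34 and 11.34 in RANKL libraries and 12.65, 12.67 and 12.55 in control libraries. The groups did not overlap, with control highest and RANKL lowest, and Cdkn1a was 1.6-fold higher with rmCst6 (log2 difference 0.68 ± 0.044 SE, adjusted p = 1.99e-08). Cdkn1b, of the same family, was 1.6-fold lower with rmCst6 (log2 difference -0.68 ± 0.048 SE, adjusted p = 5.27e-08) and 1.65-fold lower with RANKL than in control (log2 difference -0.73 ± 0.048 SE, adjusted p = 3.19e-08). The others were named after their values were seen: the log2 differences for rmCst6 were 1.16 for Cdkn2d, -1.11 for Cdkn2c, -2.94 for Cdkn2a and -0.52 for Cdkn1c, the last of which was not called (95% confidence interval -1.12 to 0.078).

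**Figure D4:**
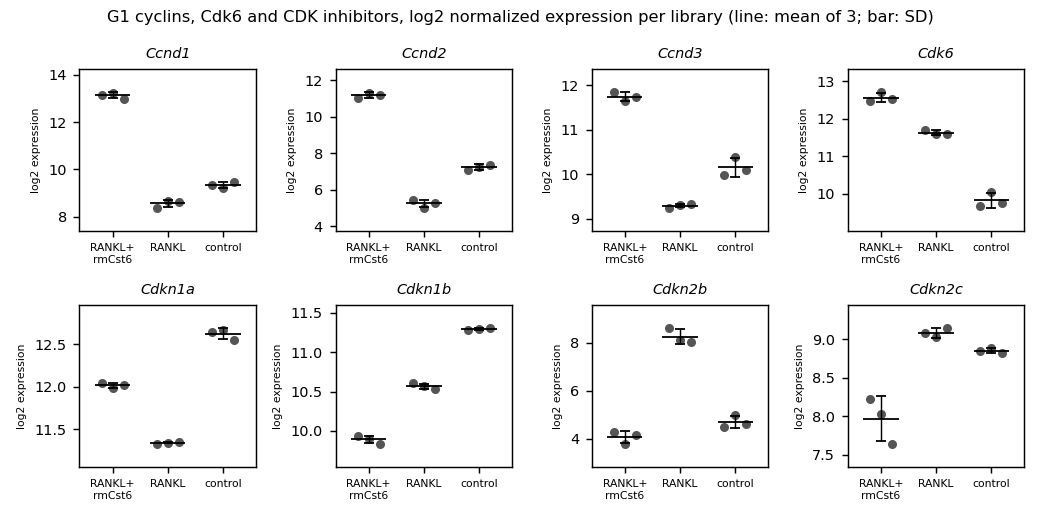
Log2 normalized expression of D-type cyclins, Cdk6 and inhibitors of cyclin-dependent kinases in each library (points), with the mean of 3 libraries (line) and the SD (bar), in RANKL plus rmCst6, RANKL and control from left to right, each panel on its own scale. The D-type cyclins are highest in RANKL plus rmCst6 and lowest in RANKL, and Cdkn2b is highest in RANKL (8.04 to 8.61).

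Among 17 E2F, pocket protein and MuvB genes in the table, 10 were higher and 4 lower with rmCst6 than with RANKL. Of all genes tested, 34.8% were higher and 38.0% lower. Rbl1, a pocket protein, had log2 values of 10.55, 10.53 and 10.51 in RANKL plus rmCst6 libraries, 9.0, 9.45 and 9.46 in RANKL libraries and 9.04, 8.98 and 9.07 in control libraries. RANKL plus rmCst6 stood above both other groups, which overlapped, and Rbl1 was 2.34-fold higher with rmCst6 (log2 difference 1.23 ± 0.10 SE, adjusted p = 3.04e-07). Lin52, a MuvB subunit, was 1.88-fold higher (adjusted p = 2.6e-05), and Tfdp2, a dimer partner of E2F factors, 2.03-fold lower (adjusted p = 4.56e-05). Further genes were named after their values were seen. Foxm1, a transcription factor of mitotic genes, had log2 values of 8.69, 8.27 and 7.97 in RANKL plus rmCst6 libraries, 9.26, 9.53 and 9.48 in RANKL libraries and 7.82, 8.14 and 8.42 in control libraries. RANKL stood above both other groups, which overlapped, as it did for Ccnb1, and Foxm1 was 2.16-fold lower with rmCst6 (log2 difference -1.11 ± 0.18 SE, adjusted p = 0.000109) and 2.46-fold higher with RANKL than in control (log2 difference 1.30 ± 0.18 SE, adjusted p = 2.97e-05). Mybl2, which encodes B-Myb, was not called for rmCst6 (95% confidence interval -0.22 to 0.40) and was 2.53-fold higher with RANKL than in control (adjusted p = 2.47e-06). The repressor genes E2f7 and E2f8 had log2 differences for rmCst6 of 0.83 and 0.76 (adjusted p = 0.00434 and 8.63e-05). Rb1, the retinoblastoma gene, was not called for rmCst6 (95% confidence interval -0.073 to 0.26) and was 2.15-fold lower with RANKL than in control (adjusted p = 4.44e-08).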

How the data were processed

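RNA from cultured mouse BM macrophages was sequenced after stranded mRNA library preparation. The table that the authors deposited holds log2 normalized values of 13526 genes in 9 libraries, 3 per group. In the submitters' processing notes, Salmon 1.2.1 (transcript quantification), DESeq2 and the GRCm38.p6 build are listed without an order. The sources used here give neither the exact transform nor the filter. The lowest value is 0. At the best step found, 38.0% to 54.8% of the values under 12 in a library were whole to within 0.02, so reads were not recovered, no count model was run and the depth per library is not known. Salmon shares reads among near-identical copies of a gene, which was not examined for single members.

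Samples were grouped by their titles. Genes with a linear value of at least 10 in at least 3 libraries entered the tests, which held 12932 genes and left out 594. One linear model over the 9 libraries gave every comparison (limma 3.58.1, R 4.3.3, trend on), with 2-sided calls at a Benjamini-Hochberg adjusted p under 0.05. The members and lists were chosen with earlier results of these data known. The replicate numbers were not used as pairs. Duplicate libraries were looked for, and no value above 0 was identical between any of them.

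Values of every library are given for the members with the largest difference in each role for rmCst6 against RANKL and for RANKL against control, and for members not called, or called against their role, for rmCst6. Up to 3 genes of each other list with the smallest adjusted p for rmCst6 were also named. The count of 1 such list and its other genes are not reported here. Gene positions and promoter letters came from GENCODE M21 and RefSeq on GRCm38.p6. The alternatives are given in the closing section.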

Additional observations from a re-analysis of the deposited data

How the results depend on the processing

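The alternatives were no filter, a filter at 100, a further 8 added before the log, scaling by quantiles or by library medians, limma with the trend off or robust on, a fit to the compared groups alone, a replicate block, a threshold of 0.01 and leaving out each of the 9 libraries. Of 98 calls on single members in the 3 comparisons, 89 were kept in all 18 alternative fits, the threshold of 0.01 not counted, 9 were lost in at least 1 and none changed direction. For rmCst6 against RANKL, Mcm7 was lost with any library left out other than RANKL plus rmCst6 replicate 3 and RANKL replicate 2, Ccne1 without RANKL plus rmCst6 replicate 1 or 2 or any RANKL library, and Aurkb and Kif11 without RANKL plus rmCst6 replicate 3 or RANKL replicate 2. For RANKL against control, Cdc6 was lost without RANKL plus rmCst6 replicate 2, RANKL replicate 2 or 3 or any control library, Pcna without replicate 1 or 3 of either group, and Gins2 with quantile normalization. For RANKL plus rmCst6 against control, Mki67 was lost without RANKL plus rmCst6 replicate 3 or control replicate 2 or 3, and Aurka without RANKL plus rmCst6 replicate 1 or control replicate 1 or 3. Of these, Mcm7, Cdc6 and Pcna were also lost with the trend off and in the fit to the compared groups alone, as was Aurka in that fit, Cdc6 and Aurkb with quantile normalization, Cdc6 with median centring and Mki67 with robust on. Another 9 values became calls when 1 library was left out, among them Plk1 and Cenpe, lower in RANKL plus rmCst6 than in control without control replicate 1, and Cenpf, higher with RANKL than in control without control replicate 2. Among genes named from other lists, Cdk2 was lost for rmCst6 without RANKL plus rmCst6 replicate 1.

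With a further 8 added, the count of members at least 2-fold lower with RANKL than in control was 0 in place of 1 (E2f1), and it was 0 to 1 when single libraries were left out. The median log2 difference of the replication members between RANKL and control was 1.186 with quantile normalization and 1.184 with median centring, and 1.241 to 1.388 when single libraries were left out. The median of all genes in that comparison was -0.121 with median centring and -0.0144 without it. Between RANKL plus rmCst6 and control, leaving out single libraries gave replication medians of 1.571 to 1.874 and mitosis medians of -0.3238 to 0.1537. The mitosis median was above 0 without RANKL plus rmCst6 replicate 3 (0.1537), control replicate 2 (0.1486) or control replicate 3 (0.02038). Between RANKL and control the mitosis median was 0.7535 to 1.231, lowest without control replicate 1. For rmCst6 against RANKL, leaving out single libraries gave 10 to 13 members higher and 19 to 21 lower, 3 to 6 and 14 to 16 by at least 2-fold.

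Over all pairs of groups, samples with the same replicate number did not deviate together (r = -0.0776 to 0.0706 across genes, against -0.082 to 0.0831 for other numbers). Between RANKL plus rmCst6 and RANKL, each library did correlate best with its own number (r = 0.0251, 0.0652 and 0.0706, against -0.0636 to 0.00472). This did not hold for every library in the other comparisons, and the numbers were not used as pairs. Deviations were taken from the mean of each group, so a positive r with 1 library pushes down r with the others of its group. The r values for the same and for other numbers are therefore not independent. With the replicate block, 1 call on a member was lost, Cdc6 between RANKL and control (log2 difference 0.518, limma adjusted p = 0.0557). The depth of the libraries is not known, so no counting error could be given.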

Other observations

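Genes that respond to DNA damage were counted beside the cell cycle genes. Of 15 p53 target genes tested, 5 were higher and 7 lower with rmCst6 than with RANKL, where 34.8% of all genes tested were higher and 38.0% lower, and 1 was higher and 11 lower with RANKL than in control. Sesn2, a stress-induced regulator of metabolism, had a mean log2 value of 10.68 ± 0.045 in RANKL plus rmCst6 libraries, 9.22 ± 0.078 in RANKL libraries and 10.56 ± 0.082 in control libraries (SD, n = 3), so that the RANKL libraries were lowest and stood apart (log2 difference 1.46 ± 0.063 SE, adjusted p = 3.94e-10, limma, rmCst6 against RANKL). Mdm2, the ubiquitin ligase for p53, was 2.04-fold higher with rmCst6 and Trp53inp1, a p53-induced nuclear protein, 3.88-fold lower (limma, adjusted p = 4.21e-09 and 2.01e-12).

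Of 15 genes for DNA repair outside S phase, 2 were higher, 5 lower and 8 not called with rmCst6 than with RANKL. The shares over all genes tested were 34.8% higher and 38.0% lower. Xrcc5, a subunit of the Ku complex that binds broken DNA ends, had log2 values of 4.20, 4.55 and 3.52 in RANKL plus rmCst6 libraries, 7.33, 6.82 and 7.01 in RANKL libraries and 3.36, 3.92 and 3.95 in control libraries. The RANKL libraries stood far above both other groups, which overlapped. Xrcc5 was 7.82-fold lower with rmCst6 (log2 difference -2.97 ± 0.30 SE, adjusted p = 1.81e-06, limma) and 9.94-fold higher with RANKL than in control (log2 difference 3.31 ± 0.30 SE, adjusted p = 6.94e-07, limma). In RANKL plus rmCst6 and control its values lie near the filter at 10 on the linear scale, the added 1 included. The size of these folds is therefore less certain. Parp1, a sensor of DNA breaks, had a log2 difference of -0.39 for rmCst6 and Ogg1, a DNA glycosylase, 0.70.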
